A study of Mus musculus with 6 samples.

Results

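Gasdermins are proteins that punch pores in the plasma membrane. In most of them an amino-terminal domain that inserts into the membrane is held shut by a carboxy-terminal domain, and a protease, such as an inflammatory caspase, sets it free by cutting the linker between them. Pores release interleukin-1 family cytokines and can end in pyroptosis, a lytic and inflammatory form of cell death, and the family is known from epithelia that meet microbes, such as skin and gut. The mouse carries small tandem families of Gsdma and Gsdmc genes beside the single genes Gsdmd and Gsdme.

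The 8 genes described here are Gsdma, Gsdma2, Gsdma3, Gsdmc, Gsdmc2, Gsdmc3, Gsdmc4 and Gsdmd. They were taken by name, with earlier results of these data known. Of these 8, 7 have a probe of their name on the arrays, with 9 of the 55681 probes in all, under 7 of 34298 gene names. Gsdmc2 has no probe of its own name. One of the 2 Gsdmc3 probes lists RefSeq transcripts of both Gsdmc3 and Gsdmc2, so that these genes cannot be told apart by it.

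The arrays compare epithelial organoids grown in Matrigel from the esophagus, which is lined by a stratified squamous epithelium, with organoids from the stomach corpus, whose glands are columnar. Each tissue has 3 single-color arrays, from mice 1, 2 and 4, at passage 0. Organoids were harvested on day 8, except those of stomach mouse 4, harvested on day 7. The labels carry the word control on all 6 and give no genotype, strain or age. The study's methods name wild-type female C57BL/6 mice for its tissues. Both media held EGF, noggin, FGF-10, N-acetylcysteine, nicotinamide, a TGF-β receptor kinase inhibitor and a ROCK inhibitor. The stomach medium also held WNT3A, R-spondin1 and gastrin and the esophagus medium forskolin, so tissue and medium cannot be told apart. The labels number the mice 1, 2 and 4 in both tissues, which was taken to mean that one animal gave both organoids, and they do not say how many wells an array pools.

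Between 45.5% and 51.1% of the 59305 non-control spots of an array were well above background, and no spot was saturated. The esophagus array of mouse 4 lay on another slide than the other 5 arrays. All 8 squamous markers had a probe higher in esophagus, with Krt5 at 17.08 ± 0.00 against 5.14 ± 0.27 (log2, mean ± SD, n = 3 arrays each) and Krt13 at 16.62 ± 0.22 against 5.62 ± 0.65, although 1 of the 8, Trp63, also had a probe higher in stomach. All 11 gastric columnar markers were higher in stomach, with Krt8 at 5.51 ± 0.31 against 16.75 ± 0.12 and Gkn3 at 6.57 ± 0.19 against 16.80 ± 0.55. Of the other lists, 3 of 6 chief and parietal cell markers and 2 of 6 intestinal markers were higher in stomach, and none of the 9 fibroblast, muscle and endothelial markers was called, of which 3 were above background on no array, Col1a1 on 1 stomach array and Pecam1 on all 6.

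The 60-base probes are what separates these paralogs, so the first 30 bases of each are shown, or, for the pair that resembles each other most, the 30 bases around the stretch they share, in capitals. Positions are those of the array files (mm9). The files name the transcripts that a probe matches but give no exon or UTR.
Gsdma, chr11:98537914-98537973, plus strand: ctaagcccatctcctgatgcttaaatcctg
Gsdma2 probe 1, chr11:98519203-98519262, plus strand: gtctacaggctggttccaggataacaaggg
Gsdma2 probe 2, chr11:98512243-98512302, plus strand: aagcaggaagtcactctgaagcgagctagc
Gsdma3, chr11:98499344-98499403, plus strand: tccctccttcacctgctaagcaggaaatct
Gsdmc, chr15:63608169-63608228, minus strand: cctcagtCCTGGATACATTTGAgatattgc
Gsdmc3 probe 1, chr15:63689307-63689366, minus strand: ccttaccacgtctaggaaacaggatgttgt
Gsdmc3 probe 2, chr15:63689822-63689881, minus strand: ccagcctccgaCCTGGATACATTTGAtata
Gsdmc4, chr15:63723278-63723337, minus strand: caagagtcgtgaatcgagtgcatgttttag
Gsdmd, chr15:75697536-75697595, plus strand: tgctagaagaatgtggcctaaggctgcagg
Gsdmc and Gsdmc3 probe 2 share a run of 15 bases, and 36 of 41 aligned positions are identical. Every other pair of member probes from different genes shares at most 9 bases in a row, and none of the 55681 probes on the arrays shares a run of 20 bases with a gasdermin probe other than itself. Transcripts of other paralogs could not be searched, as promoter sequences but no whole genome or transcript sequences were at hand.

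The 9 probes fell into 2 sets. Gsdma, Gsdmc, Gsdmc4 and 1 of the 2 Gsdmc3 probes were called higher in esophagus organoids, while Gsdmd and both Gsdma2 probes were called higher in stomach organoids. Gsdma3, with a stomach mean above that of esophagus, and the other Gsdmc3 probe, with the esophagus mean above, did not pass the test. On every one of the 9 probes the 3 esophagus values and the 3 stomach values did not overlap, 5 probes being higher in esophagus and 4 in stomach. Across the arrays, 28.6% of the probes measured on all 6 arrays showed such a gap. By limma, with p-values adjusted over all 55681 probes by Benjamini-Hochberg and a probe called at an adjusted p under 0.05, 4 of the 9 were called higher in esophagus, beside 5.94% of all probes, and 3 were called higher in stomach, beside 6.22%. Together 7 of 9 were called, beside 12.2% of all probes. The shares of all probes include dim ones. A filter on dim probes left 25859, of which 3390 were called higher in esophagus and 3536 higher in stomach. The genes were taken with earlier results of these data known, so these shares cannot test whether the family differs more often than other genes. With normexp offset 50, without stomach mouse 1 or without stomach mouse 2, the gasdermin probes called higher in esophagus went from 4 to 2.

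**Figure D1:**
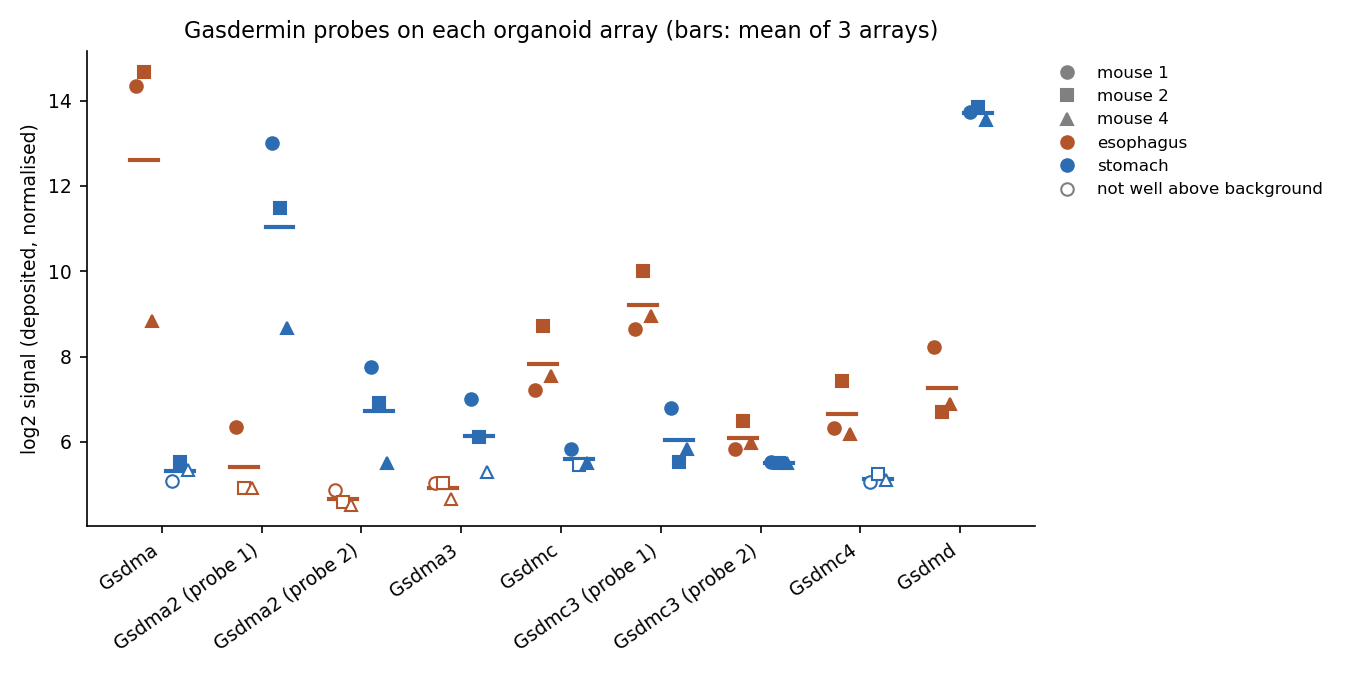
Deposited log2 signal (vertical axis) of the 9 gasdermin probes (horizontal axis) on each array, with esophagus in brown, stomach in blue, a symbol per mouse, open symbols where the probe was not well above background and a bar at the mean of 3 arrays. No probe's esophagus values overlap its stomach values; Gsdma spans 8.82 to 14.66 within esophagus and Gsdma2 probe 1 spans 8.66 to 13.00 within stomach.

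Gsdmd is the executioner of canonical and non-canonical inflammasomes, cut by caspase-1 and caspase-11 in the mouse. Its probe was printed in 10 spots per array. The log2 signal was 8.22, 6.69 and 6.88 in esophagus organoids of mice 1, 2 and 4 and 13.74, 13.86 and 13.55 in stomach organoids. The stomach values lay close together, and mouse 1 was the highest of the esophagus values. All 6 arrays read it well above background, so a signal was present in both tissues. It was lower in esophagus by a log2 difference of -6.45 (SE 0.38), an 87.5-fold gap, with a limma adjusted p of 2.29e-05 and the same direction in 3 of 3 mice. The SD between spots of one array, a technical spread, was 0.0558 to 0.145. The array software marked 3 of the 10 spots as outliers on the array of esophagus mouse 4 and 2 on that of stomach mouse 1, and these were left out of the averages. No alternative processing moved the call. The arrays read bulk RNA, in which fewer cells of a type and less RNA per cell cannot be told apart, here and for every gene that follows.

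The Gsdma genes lie side by side on chromosome 11. Human skin expresses their ortholog, and Gsdma3 is the gene mutated in several mouse strains with hair loss. Gsdma read 14.33, 14.66 and 8.82 in esophagus organoids of mice 1, 2 and 4, and 5.08, 5.53 and 5.34 in stomach organoids. In esophagus the values of mice 1 and 2 were close together and mouse 4 was far below them, yet it still lay above all 3 stomach values. In stomach the probe was well above background on 1 of 3 arrays, that of mouse 2. The log2 difference was 7.29 (SE 1.38, limma adjusted p = 0.0118), with a mean of 12.61 ± 3.28 (SD, n = 3) in esophagus against 5.32 ± 0.23 in stomach. Per mouse it was 9.25, 9.13 and 3.49, in mice 1 and 4 against a stomach value not well above background. Without esophagus mouse 4, which is also the fit with the slide as a block since that array is the only one on its slide, it was 9.18. The call was lost without stomach mouse 1 (adjusted p = 0.058) or stomach mouse 2 (adjusted p = 0.0527), with normexp offset 50 (adjusted p = 0.0566) and with trend and robust variances (adjusted p = 0.0905). Over all alternatives the difference stayed between 6.26 and 9.18.

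Gsdma2 had the opposite direction. Its brighter probe, probe 1, read 6.36, 4.92 and 4.93 in esophagus organoids and 13.00, 11.48 and 8.66 in stomach organoids of mice 1, 2 and 4. In esophagus it was well above background on the array of mouse 1 alone, and in stomach on all 3, with mouse 4 lowest. The log2 difference was -5.64 (SE 0.99, limma adjusted p = 0.00827), with means of 5.40 ± 0.83 and 11.04 ± 2.20 (SD, n = 3). Per mouse it was -6.64, -6.55 and -3.73, in mice 2 and 4 against an esophagus value not well above background. Without stomach mouse 4 it was -6.83, and without stomach mouse 1 it was -4.66, both still called. With trend and robust variances the adjusted p was 0.053. Gsdma2 probe 2, which lists 2 of the 3 RefSeq transcripts that probe 1 lists, read 4.88, 4.60 and 4.53 in esophagus and 7.76, 6.91 and 5.50 in stomach. Probe 2 was above background on no esophagus array and ordered the stomach arrays as probe 1 did. It was called at -2.06 (SE 0.50, limma adjusted p = 0.0347), at least 3.40-fold higher in stomach when the esophagus level is set no lower than the dimmest probe well above background on each array. Such bounds, here and for other genes, are taken from array means and do not allow for the spread between arrays. They hold on the deposited scale and change with the background correction. That call was lost when any 1 of 5 arrays was left out, all but stomach mouse 4, with adjusted p up to 0.133, and with the slide as a block (-1.99, adjusted p = 0.0815). Over the alternatives that keep probes apart, probe 1 lay between -7.48 and -4.66 and probe 2 between -4.13 and -1.24, and the average of both was -3.85, still called.

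Gsdma3 was dim. It read 5.04, 5.04 and 4.65 in esophagus organoids and 7.02, 6.12 and 5.29 in stomach organoids of mice 1, 2 and 4, above background on no esophagus array and on those of stomach mice 1 and 2. Stomach mouse 4 was again the lowest of its tissue and lay only just above the esophagus values. The log2 difference was -1.23 (SE 0.39, 95% interval -2.15 to -0.32), and its limma adjusted p of 0.0942 did not pass. With the mouse as a block the same difference had an adjusted p of 0.0459, and without stomach mouse 4 it was -1.66 with an adjusted p of 0.0117. On 2 of the 3 stomach arrays Gsdma3 was measured. The stomach mean was 2.25-fold above the esophagus level, set no lower than the dimmest probe well above background on each array. The direction held under all alternatives, at -2.85 to -0.73.

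The probes of Gsdma2 probe 1 and Gsdma lie 18.7 kb apart and differed in opposite directions, while Gsdma2 probe 2, 6.96 kb to the other side, was higher in stomach like Gsdma2 probe 1. The Gsdma3 probe, 19.9 kb to that side, was not called. Within 200 kb of Gsdma2 probe 1 there were 21 probes for other genes. Of these, 16 exceeded background throughout one tissue or both, and 1 was called in each direction. These were Rapgefl1, higher in esophagus by 3.23, and Ikzf3, at -0.53 but above background in neither tissue, both named after their values were seen. No probe for another gene lay between those of Gsdma3 and Gsdma, and the nearest on either side were not called, as the plot of difference against distance shows.

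**Figure D2:**
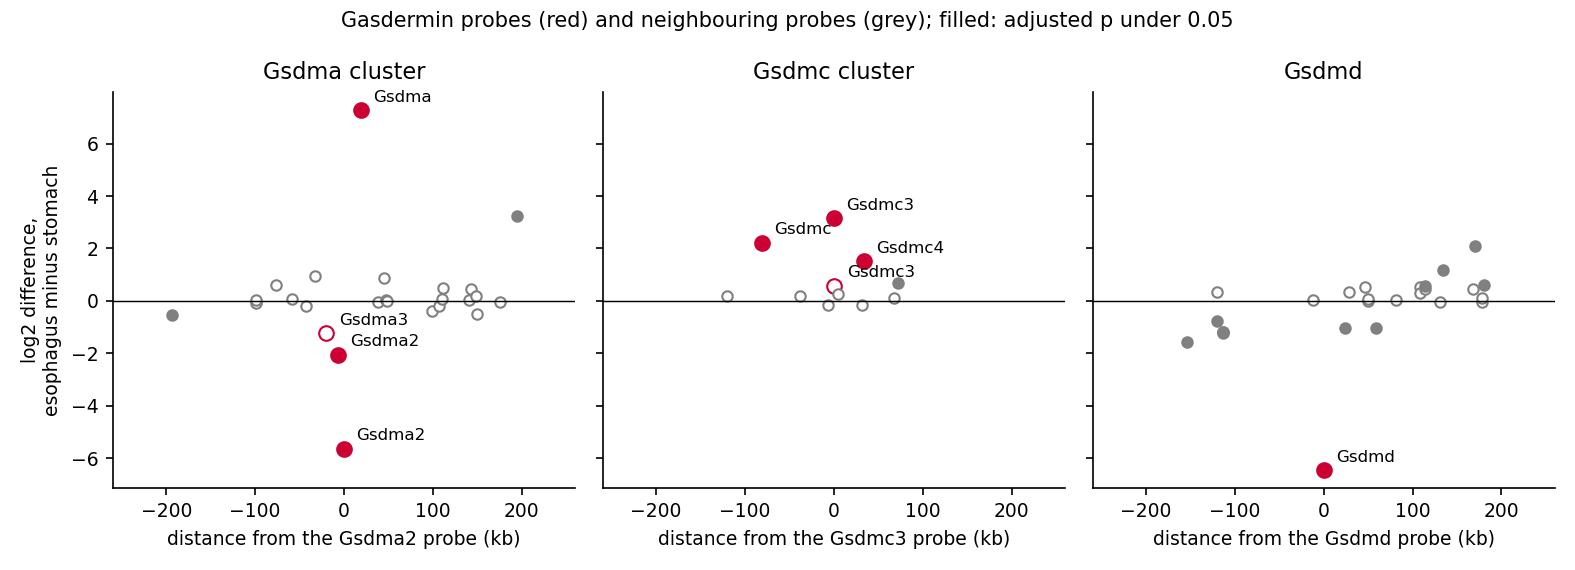
Log2 difference, esophagus minus stomach (vertical axis), against distance in kb from Gsdma2 probe 1, Gsdmc3 probe 1 or the Gsdmd probe (horizontal axis), with gasdermin probes in red, other genes' probes in grey and filled symbols for an adjusted p under 0.05. In the Gsdma cluster Gsdma sits at 7.29 and Gsdma2 at -5.64, in the Gsdmc cluster all 4 red points are above 0, and Gsdmd sits at -6.45.

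The Gsdmc genes form a tandem family on chromosome 15 and are known from squamous epithelium and from the intestine, where type 2 cytokines induce them through STAT6. On each of their 4 probes, of which 3 were called, the esophagus mean exceeded the stomach mean, with esophagus mouse 2 the highest of its tissue. Gsdmc read 7.22, 8.71 and 7.53 in esophagus organoids and 5.83, 5.47 and 5.49 in stomach organoids of mice 1, 2 and 4. The probe was above background on 3 and 2 arrays, and the lowest esophagus value exceeded the highest stomach value. The log2 difference was 2.22 (SE 0.36, limma adjusted p = 0.00588), a 4.67-fold gap that was called under every alternative, at 1.65 to 3.31.

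Gsdmc3 probe 1, the probe that also matches Gsdmc2 transcripts, read 8.64, 10.01 and 8.95 in esophagus organoids and 6.80, 5.52 and 5.84 in stomach organoids. Both tissues were above background on all arrays. The log2 difference was 3.15 (SE 0.43, limma adjusted p = 0.00234), an 8.86-fold gap, and per mouse it was 1.84, 4.49 and 3.11. Gsdmc3 probe 2, which lists no Gsdmc2 transcript, read 5.84, 6.49 and 5.96 in esophagus and 5.53, 5.49 and 5.51 in stomach. Here the tissues stayed apart but nearly touched, and the difference of 0.59 (SE 0.19, 95% interval 0.14 to 1.04) had a limma adjusted p of 0.104. The interval of probe 2 lies below that of probe 1, 2.15 to 4.14, so the probes of this gene disagree in size. Averaged over both probes, Gsdmc3 differed by 1.87 with an adjusted p of 0.00666. Which share of the signal of probe 1 comes from Gsdmc2 was not tested.

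Gsdmc4 read 6.33, 7.43 and 6.18 in esophagus organoids and 5.07, 5.25 and 5.10 in stomach organoids. It was well above background on all 3 esophagus arrays and on no stomach array. Its log2 difference was 1.51 (SE 0.32, 95% interval 0.77 to 2.24, limma adjusted p = 0.019). That is a 2.84-fold gap between the means, with a stomach signal not well above background. The call was lost without stomach mouse 1 (adjusted p = 0.0843), without stomach mouse 2 (adjusted p = 0.0673) and with normexp offset 50 (0.97, adjusted p = 0.0688). On the processed signal the log2 difference was 3.20 scaled to the 75th percentile and 3.40 quantile normalized, and both were called. The Gsdmc and Gsdmc4 probes lie 81.1 and 34.0 kb to either side of Gsdmc3 probe 1. Of 7 probes for other genes within 200 kb, 2 exceeded background throughout one tissue or both, and 1, Fam49b, was called, higher in esophagus by 0.69 (adjusted p = 0.0356), a call lost without mouse 1 or 4 of esophagus or mouse 1 or 2 of stomach (adjusted p up to 0.138), after scaling the processed signal to the 75th percentile, with trend and robust variances and with the slide as a block.

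**Figure D3:**
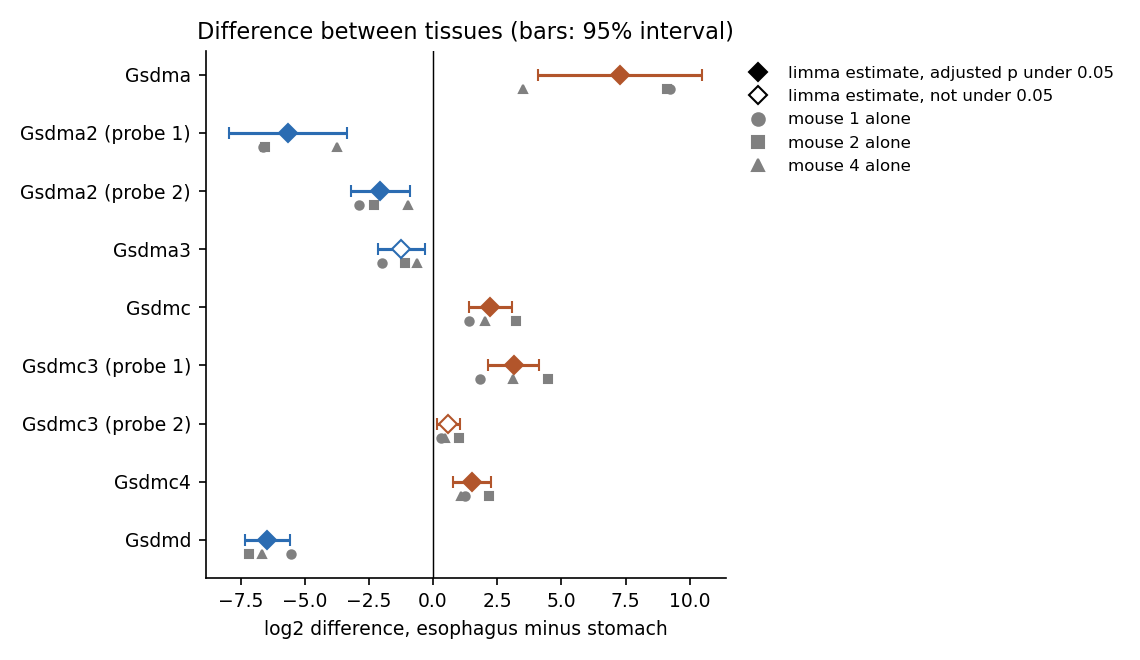
Log2 difference, esophagus minus stomach (horizontal axis), for each gasdermin probe (vertical axis), with diamonds for the limma estimate over 3 and 3 arrays, bars for its 95% interval, filled diamonds for an adjusted p under 0.05 and grey symbols for each mouse alone. Gsdma3 at -1.23 and Gsdmc3 probe 2 at 0.59 are the open diamonds, and no mouse crosses 0 on any probe.

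The spread within a tissue was widest for Gsdma in esophagus and for Gsdma2 probe 1 in stomach, and tissue markers moved on the same arrays. Lor and Crct1, genes of the cornifying upper layers, were also lowest in esophagus mouse 4: Lor read 14.44, 16.94 and 10.38 and Crct1 read 17.33, 17.07 and 14.22 in mice 1, 2 and 4. Of the 12 upper-layer markers, 8 were called higher in esophagus, 1 lower and 3 not at all. Also 8 of the 12 were lowest on the array of esophagus mouse 4, and their summed signal was 19.23, 19.33 and 17.18 in esophagus and 11.28 to 13.04 in stomach. Of the 8 squamous markers, 4 were lowest on the same array, among them Dsg3 at 13.86, 12.30 and 11.35 and Krt4 at 13.56, 14.67 and 12.73. Krt5 of the basal layer read 17.07, 17.08 and 17.08, near the top of the signal scale, and does not stand for that layer. Col17a1, another basal gene, was lowest there, at 14.49, 14.68 and 14.44. Trp63, also basal, read 13.46, 12.96 and 12.42 on a probe and 11.57, 11.14 and 11.39 on another. Whether the basal layer was steady was not tested. The part of the upper layers in the Gsdma values was not tested, and mouse 4 and its slide cannot be told apart.

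In stomach organoids, Gsdma2 probe 1 ordered the arrays as Muc5ac did, the mucin of surface pit cells, which read 15.65, 15.03 and 13.26 in mice 1, 2 and 4. Of the 11 columnar markers, 6 were lowest in stomach mouse 4, among them Gkn3 at 17.16, 17.07 and 16.16. Of the 6 chief and parietal cell markers on the arrays, 1 was lowest there, Gif at 13.68, 14.11 and 11.31, while the brighter probe of Pgc, a pepsinogen of chief cells, was highest there, at 13.15, 13.94 and 14.66. Muc6, the mucin of neck and gland cells, was highest there, at 7.39, 8.33 and 9.79. The summed signal of the columnar markers was 20.08, 20.03 and 19.89, with 11.48 to 12.93 in esophagus. The array of stomach mouse 4 is also the one harvested on day 7, and mouse, day and mucin level cannot be told apart with 3 arrays. Gsdmd showed no such spread in stomach (13.55 to 13.86).

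**Figure D4:**
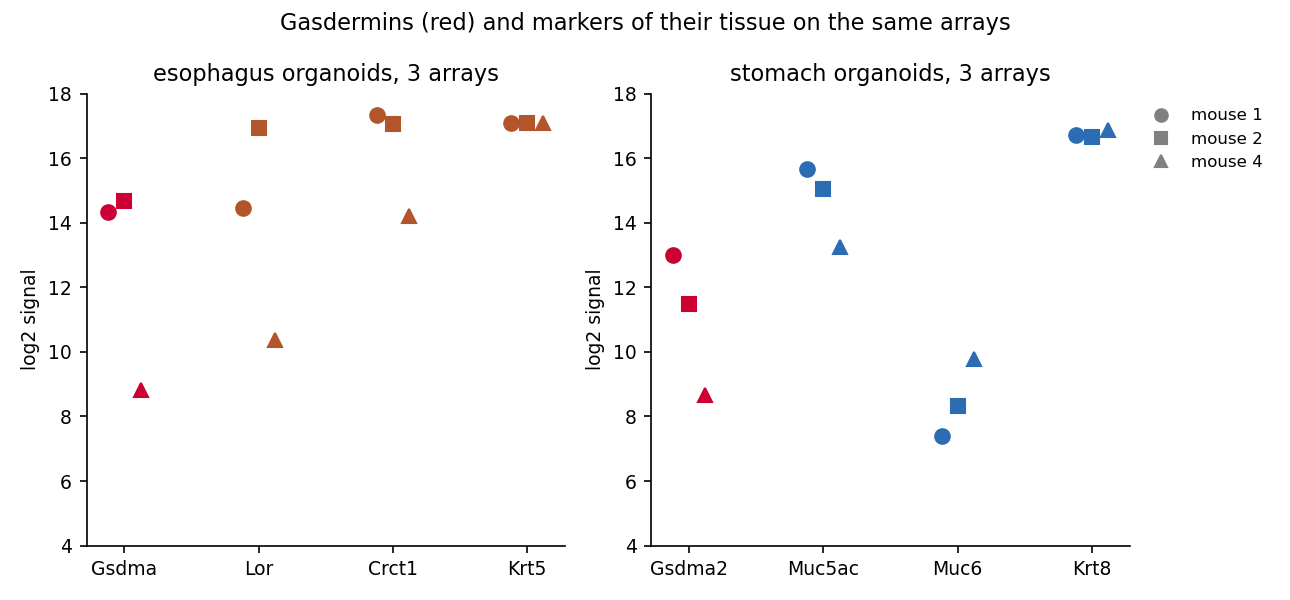
Log2 signal (vertical axis) of Gsdma and 3 squamous markers in the 3 esophagus arrays and of Gsdma2 probe 1 and 3 gastric markers in the 3 stomach arrays, with a symbol per mouse and the gasdermin in red. Mouse 4 is lowest for Gsdma, Lor and Crct1 but not for Krt5, and lowest for Gsdma2 and Muc5ac but highest for Muc6. Col17a1, a basal gene like Krt5 that is not drawn, was lowest in esophagus mouse 4.

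Genes with the most similar pattern over the 6 arrays were ranked by the root mean square distance between log2 values, each centred on its mean, among 34265 genes. For Gsdma they were Lce3f at 0.36, Klk9 at 0.39 and Sprr2k at 0.40. For Gsdma2 they were Rep15 at 0.63, Sult1b1 at 0.64 and Lypd8 at 0.70. For Gsdmc the first was Aadacl2 at 0.19 and the third Pax9 at 0.22, with an unnamed interval between them, and for Gsdmc3 the first was Aqp3 at 0.31, followed by a pair of probes without gene symbols. For Gsdmc4 they were Mfsd4b2 at 0.15, Dnajb1 at 0.17 and Sdr16c6 at 0.18, and for Gsdmd Ecscr at 0.22, Rhoc at 0.25 and Acss1 at 0.28. Each distance is in log2 units over the same 6 arrays and describes likeness only.

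The machinery that acts on gasdermins was read from gene lists. Over all 34298 gene names, 7.88% had a probe called higher in esophagus and 8.33% one called higher in stomach, and the median difference of the brightest probes was 0.03. Of 5 relatives outside the 8 genes, 1 was called. Gsdme, which caspase-3 cuts, was higher in stomach: 4.86, 5.17 and 5.63 in esophagus, above background on no array, against 7.61 to 8.08 in stomach. That is at least 6.18-fold (log2 difference -2.67, SE 0.23, limma adjusted p = 0.000207, with -4.57 to -1.92 over the alternatives and -1.39 averaged over its probes), although its dimmer probe was above background on no array. The other 4, Pjvk and the Gsdmc-like copies Gsdmcl1, Gsdmcl2 and Gsdmcl-ps, were above background on no array. The median difference of the 5 was -0.14.

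Among the 9 proteases that cut gasdermins and are reported here, 1 was called by limma, higher in esophagus, and 8 were not called, with a median difference of -0.07. Casp1, the protease of the canonical inflammasome that cuts Gsdmd, was higher in esophagus, opposite to Gsdmd: 12.77, 12.70 and 13.34 in esophagus and 5.25, 5.25 and 4.94 in stomach, where it was above background on no array. That is a 221-fold gap between the means, with a stomach signal not well above background (log2 difference 7.79, SE 0.21, limma adjusted p = 4.12e-07). The call held under every alternative, at 6.77 with normexp offset 50 to 10.33 after scaling the processed signal to the 75th percentile. Casp4, the mouse caspase-11, was above background on all arrays, with a difference of 0.23 (SE 0.54, limma adjusted p = 0.865). The organoids with high Gsdmd signal were thus those with Casp1 below background.

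Of 19 inflammasome sensors, adaptors and regulators, 1 was called higher in esophagus, 5 higher in stomach and 13 were not called, with a median difference of -0.33. On the processed signal, scaled to the 75th percentile or quantile normalized, 2 were called higher in esophagus. All 5 higher in stomach belong to the NAIP and NLRC4 inflammasome, which senses bacterial flagellin and secretion systems. They were grouped so after their values were seen, and no test of the group was run. The count higher in stomach also moved over the alternatives. Naip6 read 5.11 ± 0.37 in esophagus and 12.11 ± 0.43 in stomach (SD, n = 3), at least 119-fold higher. Naip2 was at least 49.1-fold higher in stomach, Nlrc4 at least 26.9-fold and Naip1 at least 25.02-fold, all 4 above background on no esophagus array and with limma adjusted p of 2.25e-06 or less. A second Naip1 probe, above background on all 3 stomach arrays only, differed by -0.61, at least 1.37-fold, and was not called (limma adjusted p = 0.179). The fifth, Naip5, was above background on all 6 arrays, at 13.03 ± 0.23 in esophagus and 13.92 ± 0.37 in stomach (SD, n = 3). It differed by -0.88 (limma adjusted p = 0.04). Unlike those of the other 4 genes, its call did not hold under every alternative. Naip genes are close paralogs, yet their probes share at most 6 bases in a row. The calls of Naip6, Naip2, Nlrc4 and the brighter Naip1 probe held under every alternative, at log2 differences of -8.94 to -5.97, -7.44 to -4.66, -7.91 to -3.75 and -7.12 to -3.66, or -2.64 when both Naip1 probes were averaged. Of 7 immune cell markers, 1 was called, Itgam, higher in stomach on 1 of its 3 probes (-2.62, limma adjusted p = 0.000662), the other 2 probes being above background on no array. Of the 7, Ptprc and Adgre1 were above background on no array, while Cd68 (mean 13.17 in esophagus and 11.54 in stomach), Cd3e (7.39 and 7.89), Csf1r (7.94 and 8.12) and the called Itgam probe were above it on all 6. The summed immune marker signal was 12.45 to 14.92 in esophagus and 13.59 to 14.10 in stomach. The part of immune cells in these values was not tested. The 1 gene higher in esophagus was Pycard, the ASC adaptor that links many sensors to caspase-1, at 12.98 ± 0.18 against 10.18 ± 0.10 (log2 difference 2.80, limma adjusted p = 1.7e-05). Pycard and Naip5 lie outside the 4 genes allowed for naming and were named after their values were seen.

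Of 9 interleukin-1 family genes, the cargo of gasdermin pores, and their antagonists, 3 were called higher in esophagus, 1 higher in stomach and 5 were not called, with a median of 0.95. The 3 were Il1f6, Il1f9 and Il1f8, which encode the IL-36 cytokines of squamous epithelia. Il1f6 read 11.78, 13.94 and 6.95 in esophagus and was above background on no stomach array, at least 62.4-fold (limma adjusted p = 0.0351), with esophagus mouse 4 lowest as for Gsdma. Il1f9 was higher by 4.66 (limma adjusted p = 0.000768), with 1 stomach array above background, and by 3.61 to 6.61 over the alternatives. Il1f8 was above background on no stomach array and at least 15.7-fold higher on the deposited scale (limma adjusted p = 0.00393). Its log2 difference was 4.09, 3.27 without esophagus mouse 2 and 2.97 to 6.66 over the alternatives, all called. Of the 9 genes, 8 were lowest in esophagus mouse 4 within esophagus, these 3 among them. The summed signal of the 9 was 13.36, 14.54 and 10.58 in esophagus of mice 1, 2 and 4 and 14.20 to 14.96 in stomach. Il18 read 8.23, 11.80 and 6.99 in esophagus and 13.76, 13.46 and 12.13 in stomach. Its difference of -4.11 was not called (limma adjusted p = 0.0525), and Il1b was above background on no array. Il33, an alarmin, was lower in esophagus, with a log2 difference of -3.34 (limma adjusted p = 0.0272). The log2 difference of Il1f6 was 4.71 without esophagus mouse 2 and 8.20 without esophagus mouse 4. Its call was lost when any array but that of esophagus mouse 4 was left out (adjusted p up to 0.131). The log2 difference of Il33 was -2.55 without esophagus mouse 4 and -2.68 without stomach mouse 4. Its call was lost without stomach mouse 1, 2 or 4 (adjusted p up to 0.071) and with the mouse as a block (adjusted p = 0.0707). With normexp offset 50, on the quantile normalized processed signal and with trend and robust variances, the calls of Il1f6 and Il33 were both lost.

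**Figure D5:**
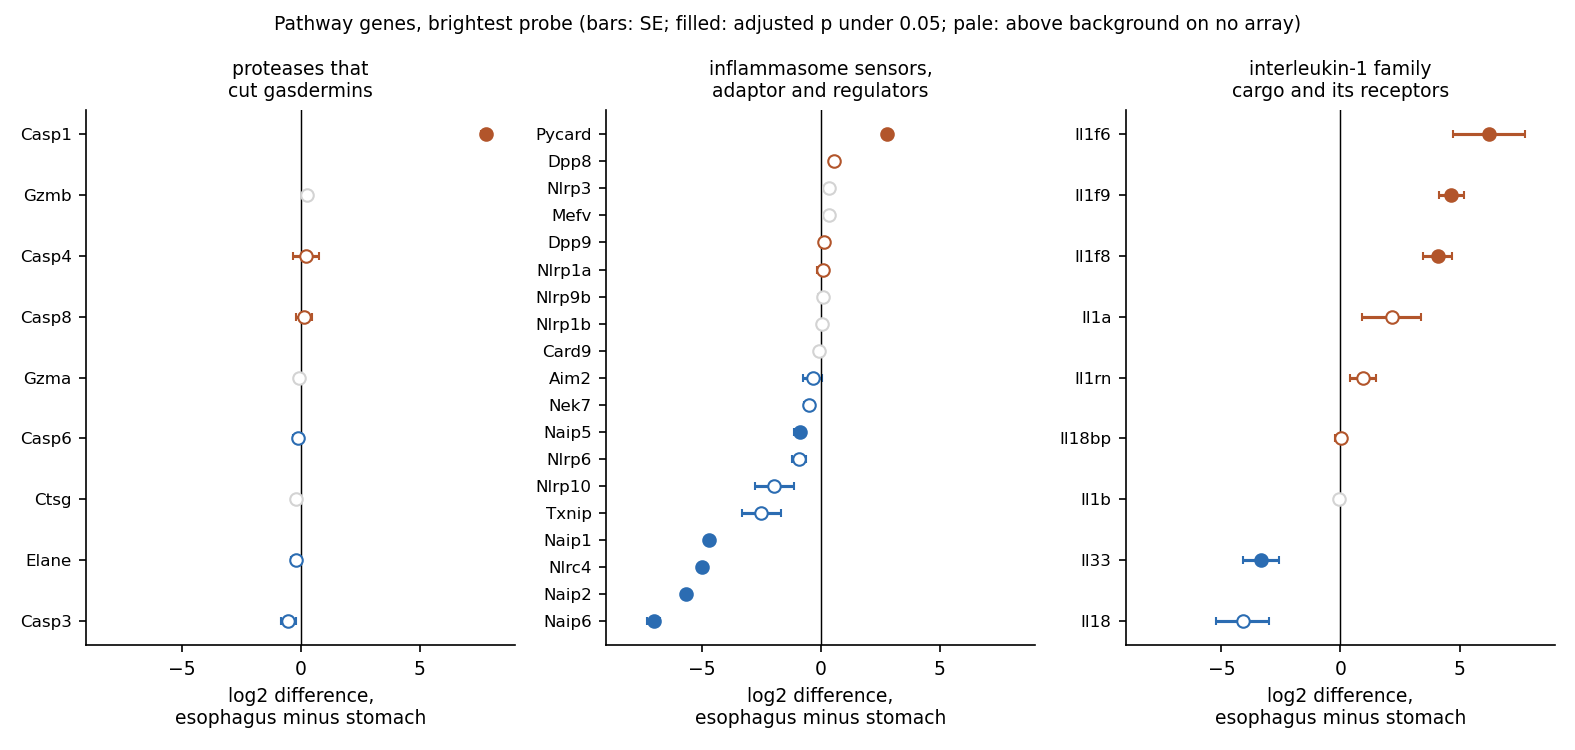
Log2 difference, esophagus minus stomach (horizontal axes), of the brightest probe of each gene on 3 lists (vertical axes), with bars for the SE, filled symbols for an adjusted p under 0.05 and pale symbols for genes above background on no array. Casp1 at 7.79 and Pycard at 2.80 are on the esophagus side, and Naip6, Naip2 at -5.63, Nlrc4 and Naip1 are on the stomach side.

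Of 14 genes for membrane rupture and repair, 3 were called higher in esophagus, 3 higher in stomach and 8 were not called, with a median of 0.30. Anxa1, a calcium-dependent membrane binding protein, was higher in esophagus by 2.83 on one probe (limma adjusted p = 0.000349) and by 0.67 on its other (limma adjusted p = 0.0269). Ninj1, which ruptures the membrane after gasdermin pores form, was lower in esophagus, with a log2 difference of -0.96 (limma adjusted p = 0.0267), a call lost without esophagus mouse 2 or any one stomach array (adjusted p up to 0.104) and on the processed signal, scaled to the 75th percentile (-0.69, adjusted p = 0.344) or quantile normalized (adjusted p = 0.109). Chmp4c and Pdcd6ip, of the ESCRT repair machinery, were each called on a dimmer probe, at -0.93 and 0.82, and not on their brightest. A further Chmp4c probe differed by -0.12 (limma adjusted p = 0.843), was not called and turned to 0.16 without esophagus mouse 4. The call of Chmp4c was lost without esophagus mouse 2 or 4 or stomach mouse 1 or 2 (adjusted p up to 0.158). The call of Pdcd6ip was lost without any array but stomach mouse 4 (adjusted p up to 0.112). Both were also lost on the processed signal with either scaling, with trend and robust variances, with the slide as a block and with probes averaged (adjusted p up to 0.232 and 0.154), and that of Chmp4c with normexp offset 50 too. Without stomach mouse 1 or stomach mouse 2 these counts went from 3 to 1 for esophagus and from 3 to 0 for stomach, and without esophagus mouse 2 the stomach count also went to 0. The larger difference of Anxa1 kept its call under every alternative, and its smaller one lost it without any single array, with a block for the mouse (adjusted p = 0.0604) or for the slide (adjusted p = 0.0594) and on the processed signal with either scaling. Of 6 regulators, 2 were called, both higher in esophagus, with a median of 0.14: Stat6 by 0.70 (limma adjusted p = 0.0333) and the palmitoyltransferase gene Zdhhc5 by 0.91 (limma adjusted p = 0.0277). Both calls were lost without mouse 1 or mouse 2 of either tissue, with adjusted p up to 0.131 and 0.113. The call of Zdhhc5 was also lost without stomach mouse 4 (adjusted p = 0.0638) and that of Stat6 with the mouse as a block (adjusted p = 0.0733), on the processed signal with either scaling, with trend and robust variances and with probes averaged (adjusted p up to 0.118).

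Of 16 neighbours of the gasdermin loci on the list, 1 was called higher in esophagus and 4 higher in stomach, with 11 not called and a median of 0.04. Near Gsdmd, Zc3h3 differed by -1.19 (limma adjusted p = 0.00111), Naprt by -1.05 (limma adjusted p = 0.0318) and Mafa by -0.77 (limma adjusted p = 0.0171). The calls of Naprt and Mafa were lost without esophagus mouse 2 or stomach mouse 1 or 2, and that of Naprt also without esophagus mouse 4, with adjusted p up to 0.132 and 0.069. After scaling the processed signal to the 75th percentile all 3 calls were lost (adjusted p = 0.0922, 0.229 and 0.322). The dimmer Mafa probe differed by 0.33 and was not called, and the average of both Mafa probes was -0.22 (adjusted p = 0.282). The call of Naprt was also lost with normexp offset 50, on the quantile normalized processed signal and with the slide as a block, and that of Mafa with trend and robust variances. Within 200 kb of Gsdmd, 4 of 25 other probes were called higher in esophagus, beside 5.94% of all probes, and 7 higher in stomach, beside 6.22%. These counts are of probes, and the 7 include Zc3h3 probes at 112.66, 112.67 and 112.72 kb. Gsdmd at -6.45 exceeded all 25 other probes in size, whose called differences ran from -1.56 to 2.09.

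Promoter sequences were held for Gsdma3 and Gsdmc3, and the 250 bases before each start are shown because these genes differed in opposite directions, Gsdma3 without passing the test (RefSeq, GRCm38.p6). Capitals mark a match to TATATAA.
Gsdma3, chr11:98626099-98626348, plus strand: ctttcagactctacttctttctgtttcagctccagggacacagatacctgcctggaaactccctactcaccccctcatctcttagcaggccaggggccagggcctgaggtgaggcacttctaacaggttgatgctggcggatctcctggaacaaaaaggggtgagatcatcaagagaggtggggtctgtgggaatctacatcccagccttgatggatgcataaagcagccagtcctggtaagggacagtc
Gsdmc3, chr15:63878559-63878808, minus strand: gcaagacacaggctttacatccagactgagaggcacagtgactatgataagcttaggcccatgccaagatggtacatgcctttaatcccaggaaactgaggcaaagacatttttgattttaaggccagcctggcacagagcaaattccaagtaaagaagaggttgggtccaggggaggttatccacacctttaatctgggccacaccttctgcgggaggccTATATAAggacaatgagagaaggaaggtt
Searched on both strands were the TATA box letters TATAAA and the variant TATATAA, the AP-1 letters TGANTCA, the GATA factor letters AGATAA, the forkhead letters TGTTTAC, the KLF letters CCACCC and the TCF or SOX letters ACAAAG. The Gsdmc3 window held TATATAA once, 29 bases before the start, and the Gsdma3 window held none. TATATAA occurs in 3.04% of 32851 promoter windows of this length, and the other 6 in 3.17% to 28.1%. These matches describe the letters only.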

How the data were processed

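Total RNA of 6 organoid preparations, 3 esophagus and 3 stomach, was labelled in one color and hybridized to Agilent SurePrint G3 mouse arrays of 62976 spots. Per the labels and the study's methods, the authors read the scans with Agilent Feature Extraction 11.5.1.1 and background corrected and quantile normalized the spots. The authors' deposited table holds the resulting log2 values, one per spot, and the deposited scanner files hold linear intensity values of signal and local background, plus flags. The methods do not state the offset of the background correction or whether p-values were adjusted. The deposited values could be rebuilt by normexp background correction of median spot intensities (offset 15) and quantile normalization, to within 0.00433 at the median and 0.0726 at most. Empty cells were exactly the outlier-marked spots. Quantile normalization gives all arrays one distribution, so a difference here is relative to the other probes of the array.

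Spots of a probe were averaged and the 3671 control spots of each array were left out. In R 4.3.3, limma 3.58.1 (lmFit, eBayes) set 3 esophagus against 3 stomach arrays in one fit with no block, as the methods name none, with Benjamini-Hochberg adjustment over 55681 probes. The test was tested on simulated data first. A probe was well above background on an array by the scanner's own flag. Where a probe was below it on all arrays of a tissue, a fold change given as at least is a bound on the array means. It does not allow for the spread between arrays. An exact permutation test of 3 against 3 arrays cannot give p below 0.1 and was not used. Precision is limited by having 6 arrays, and the 3 mice per tissue are the replicates. The labels give the mouse numbers 1, 2 and 4 in both tissues, and arrays of one number were taken as pairs from one animal, which no source states outright. Deviations from the tissue means correlated at 0.025, 0.0119 and -0.00787 within mice 1, 2 and 4 and at -0.0726 to 0.0405 between mice.

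The gasdermin genes and the gene lists were chosen with earlier results of these data known. One listed gene is not reported here and was left out of its list. Named were every gasdermin probe, at most the 4 called genes with the largest difference per list, the 3 nearest genes in pattern, and 8 markers. Other markers and genes in the text were named after their values were seen. Alternatives were other background corrections and scalings, a filter on dim probes, trend and robust variances, the mouse or slide as a block, probes averaged per gene, unadjusted p under 0.05 with a 1.5-fold change, and leaving out each array. Sequences of promoters came from RefSeq (GRCm38.p6) and were never mixed with the mm9 positions of the files. Figures were drawn in Python with matplotlib.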

Additional observations from a re-analysis of the deposited data

How the results depend on the processing

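No gasdermin probe changed direction under any alternative run. Gsdmd, Gsdmc and Gsdmc3 probe 1 kept their calls under all of them. With normexp offset 50 the calls were lost for Gsdma (6.39), Gsdma2 probe 2 (-1.24) and Gsdmc4 (0.97), leaving 2 probes called higher in esophagus. With trend and robust variances they were lost for Gsdma (7.29) and Gsdma2 probe 1 (-5.64). Gsdma2 probe 2 also lost its call on the quantile normalized processed signal (-4.12) and with the slide as a block (-1.99). With the mouse as a replicate block Gsdma3 gained a call at -1.23, and the block changed no other call of a gasdermin probe. Averaging probes gave Gsdmc3 a call at 1.87. Leaving out single arrays gave 6.26 to 9.18 for Gsdma, -2.67 to -1.54 for Gsdma2 probe 2, -1.66 to -0.79 for Gsdma3 and 1.11 to 1.74 for Gsdmc4, and 2 to 4 gasdermin probes called higher in esophagus. Over all probes it gave 1794 to 3500 called higher in esophagus (1794 without stomach mouse 1, 1804 without stomach mouse 2) and 2297 to 3915 higher in stomach (2297 without stomach mouse 1), and the unadjusted rule called 5168 higher in esophagus. Of the gasdermin probes the unadjusted rule called 5 higher in esophagus and 4 higher in stomach, Gsdma3 and Gsdmc3 probe 2 among them. Over all alternatives the genes called higher in esophagus and in stomach numbered 1 to 2 and 4 to 7 among inflammasome genes, 2 to 3 and 0 to 2 among interleukin-1 family genes, and 1 to 4 and 0 to 3 among membrane rupture and repair genes, and 0 to 2 regulators were called higher in esophagus. Scaling to the 75th percentile moved the median of all probes from 0.02 to 0.19. The cause of these changes was not tested. Dim probes limit what can be read: Gsdma3, Gsdmc4 and Gsdma2 probe 2 were well above background on no array of one tissue.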
